A study of Nothobranchius furzeri with 20 samples.

Results

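The genes described here are the 100 with the most RNA sequencing reads in livers of male Nothobranchius furzeri, the turquoise killifish, whose short natural lifespan makes it a model of ageing. Counts were scaled to CPM (a gene's counts per 1000000 counts of its library), CPM were averaged within each of 4 groups, and the 100 genes with the highest mean of the 4 group means were taken from the 26739 genes in the count tables. They are 0.374% of those genes. All fish were of the strain MZM-04/10p and had received rotenone, an inhibitor of mitochondrial complex I, at a dose given as a percentage of the LC50, the median lethal concentration. The groups were 27-week fish at 1% and 9-week fish at 0.1%, 1% and 10%, with 5 libraries each. Rotenone-free fish were not analysed here, so every comparison is between doses, or between ages at 1 dose. Because 27-week fish were labelled at 1% only, a difference of age and an age-dependent response to rotenone cannot be told apart.

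The messenger RNA of a vertebrate liver is dominated by a small set of transcripts, most of them for proteins that hepatocytes secrete into the blood, such as apolipoproteins, fibrinogen and transport proteins, beside enzymes of central metabolism and, in females of egg-laying species, yolk precursors. A gene's reads are a share of a fixed total, so a change in a few very abundant transcripts moves the shares of all others. Rotenone blocks electron transfer at complex I and thereby the proton pumping that drives ATP synthesis. The deposited identifiers are numbered codes beginning with Nfu_g_1. Of these, 0 matched the RefSeq gene table, and no file gives their names. The members are therefore given by identifier, no function or sequence is attached to them, and the tissue could not be checked against liver markers.

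Each library held between 23.5 and 33.9 M counts (M, mega), and the lowest count of any member in any library was 921, so counting error was small beside the spread between libraries. The labels do not say that each library came from a separate fish, and p-values measure only the spread between these libraries. The 0.1% group was deposited in a different table from the other groups, so that group and table cannot be told apart. Replicate 5 of the 9-week 1% group stood apart from the others, with a normalization factor (TMM, the trimmed mean of M-values) of 0.672. The other 14 libraries used from its table lay between 0.905 and 1.26. In the fit of all 20 libraries, replicate 4 at 0.1% had the highest factor, 1.37, and replicate 2 at 0.1% had 0.805. Replicate 5 at 9 weeks and 1% again had the lowest, 0.652.

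The member with the highest level was Nfu_g_1_014314, a gene of 783 nucleotides by the lengths recovered from the authors' tables. It held 33422, 34325, 36624, 42562 and 30828 CPM in the 5 libraries of 27-week fish. At 9 weeks it held 53959, 60969, 53186, 31642 and 36327 CPM at 0.1%, 52678, 55782, 41495, 38656 and 48584 CPM at 1% and 56961, 46376, 49977, 44149 and 52572 CPM at 10%. It thus took between 3.08% and 6.10% of each library's counts, with the 27-week range below that of 9-week fish at 10% and overlapping those at 0.1% and 1%. Nfu_g_1_015843 (6210 nucleotides) came next and led in 2 groups, averaging 39854 ± 12660.2 CPM in 27-week fish, and 49314 ± 13283 CPM in 9-week fish at 0.1%. Its means were 32271 ± 8133 CPM at 9 weeks and 1% and 43639.6 ± 14461 CPM at 10% (SD, n = 5 each). The ranges of all 4 groups overlapped. Nfu_g_1_020367, at rank 3, averaged 27083 ± 4278 CPM in 27-week fish, and 30084 ± 15798, 33612 ± 7252 and 33954 ± 4458 CPM in 9-week fish at 0.1%, 1% and 10% (SD, n = 5 each). Nfu_g_1_005996, at rank 4, varied more within groups, relative to its mean, than the members ranked above it, except at 10%. Its libraries held 21999, 11232, 6265, 9023 and 4209.6 CPM at 27 weeks, 16669.8, 26630.3, 58388, 12639 and 26249.6 CPM at 0.1%, 35593, 56233, 7049, 5523 and 41309.9 CPM at 1% and 33949.6, 34359.8, 55905, 34657 and 47066 CPM at 10%. At 10% every library held at least 33949.6 CPM, whereas at 9 weeks and 1% replicates 3 and 4 held 7049 and 5523 CPM and the other 3 at least 35593 CPM.

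**Figure D1:**
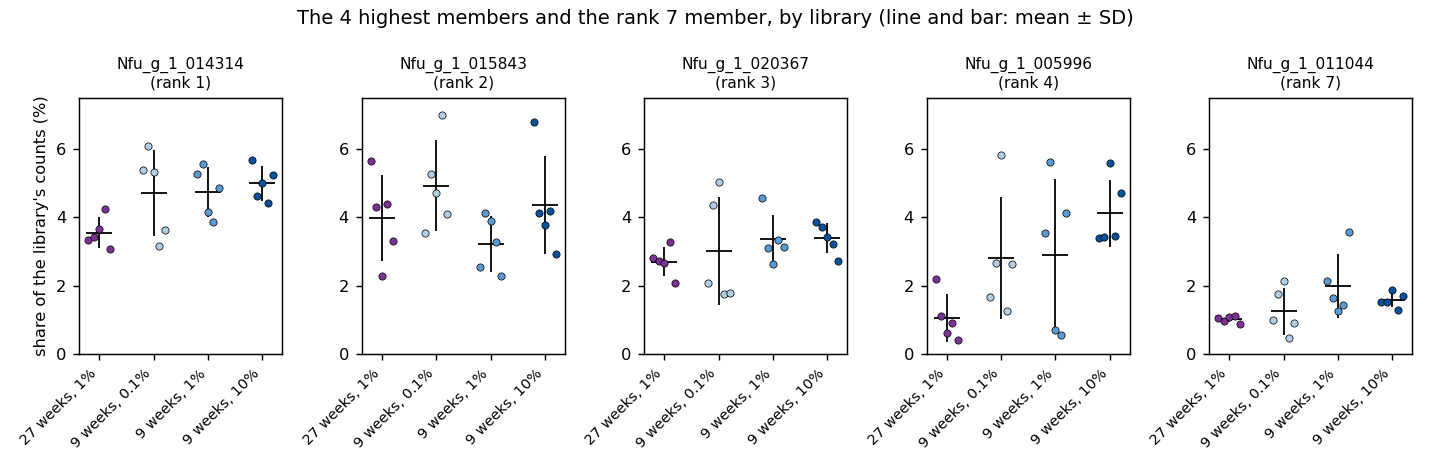
Share of each library's counts (%, linear axis from 0) taken by the members ranked 1 to 4 and 7, with 1 point per library, and the mean ± SD of each group of 5. The 27-week libraries of Nfu_g_1_011044 lie close together beside the wide spread at 9 weeks and 1%, and Nfu_g_1_014314 takes 3.08% to 4.26% at 27 weeks.

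Levels fell off steeply with rank, and the first member stood 30.8 times above the member at rank 100 in mean CPM. Just inside the limit of the rule lay Nfu_g_1_011190 and Nfu_g_1_022977, at 1474 and 1465 CPM, and just outside lay Nfu_g_1_002569 and Nfu_g_1_000368, at 1454 and 1435 CPM (means of the 4 group means). Reads per gene grow with transcript length, but the members were not long genes, with a median length of 2305 nucleotides (381 to 11777) beside 2584 nucleotides in the 14258 other tested genes with a length. Of the 100 members, 21 were shorter than 1000 nucleotides. On a scale per length (TPM, a gene's share of all counts per nucleotide, over genes with a length), 56 members were also among the 100 highest genes, and 7 of the 10 highest by CPM were among the 10 highest. The lowest member on that scale ranked 306th. Nfu_g_1_014314 again led, with 94723 TPM, followed by Nfu_g_1_011044 of 621 nucleotides with 38233 TPM and Nfu_g_1_021050 of 699 nucleotides with 19981 TPM (means of the 4 group means). All 3 are short, and by CPM they ranked 1, 7 and 11.

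Of the 100 members, 78 were among the 100 highest genes by mean CPM in all 4 groups, 12 in 3 groups and 10 in 2. In single libraries, 43 members were among the library's own 100 highest genes in all 20. The 10% group held 97 members in its own first 100, the 0.1% group 93, the 27-week group 90 and the 9-week 1% group 88. Some members dropped far down the order of a group. Nfu_g_1_020877 ranked 9th at 27 weeks but 388th at 9 weeks and 10%, Nfu_g_1_000698 ranked 290th at 9 weeks and 1%, and Nfu_g_1_022977 ranked 219th at 27 weeks.

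The spread between libraries differed by group. The median coefficient of variation of a member's CPM was 17.4% at 27 weeks, 27.2% at 0.1%, 31.1% at 1% and 14.4% at 10%. For the genes ranked 101 to 500 it was 14.9%, 24.2%, 34.1% and 13.2% in the same order, so the members varied less than the genes just below them only at 1%. Variation above 50% was shown by 4 members at 27 weeks, and by 24, 27 and 11 at 0.1%, 1% and 10%. These members did not all vary separately. At 10%, Nfu_g_1_021459, Nfu_g_1_003952, Nfu_g_1_013506 and Nfu_g_1_011292 were each lowest in replicate 1, at 117 to 437 CPM. All of them were highest in replicate 4, at 3643 to 11780 CPM. Nfu_g_1_004027, Nfu_g_1_010414, Nfu_g_1_012205 and Nfu_g_1_011319 were likewise lowest in replicate 1 and highest in replicate 4. Nfu_g_1_020840 was lowest in replicate 1 but highest in replicate 2. Of the 11 members above 50% at 10%, only Nfu_g_1_003041 and Nfu_g_1_020877 were lowest in another library, replicate 3. The 11 are therefore not 11 separate observations. The most variable member at 9 weeks and 1% was Nfu_g_1_003041, with 315, 748, 6629, 5828 and 152 CPM. Its replicates 3 and 4 were high, the same libraries in which Nfu_g_1_005996 was low. At 27 weeks Nfu_g_1_003041 held 5575, 8147, 6091, 6416 and 8904 CPM, all within a narrow range. Nfu_g_1_011292 was the most variable at 0.1%, with 1211, 397, 295, 615 and 2986 CPM. At 10% it was Nfu_g_1_020877, with 269, 169.5, 30.5, 823 and 142 CPM, and at 27 weeks Nfu_g_1_005996, whose values are given above.

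Together the 100 members took 49.2% of all counts on average over the 20 libraries, between 40.6% and 55.9%. Their share was 45.5% ± 3.29 in 27-week fish, and 49.2% ± 6.38, 48.9% ± 3.72 and 53.2% ± 1.10 in 9-week fish at 0.1%, 1% and 10% (SD, n = 5 each). The 5 libraries at 10% lay close together, between 52.2% and 55.0%, whereas those at 0.1% covered the whole range of the series. In the 0.1% group the 10 highest members alone took 29.9% and 32.7% in replicates 2 and 3 and 17.34% to 19.8% in the other 3. The shares per group describe genes that were chosen by their level and carry no test. Most group means in that choice were of 9-week fish, which favours genes high at 9 weeks.

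**Figure D2:**
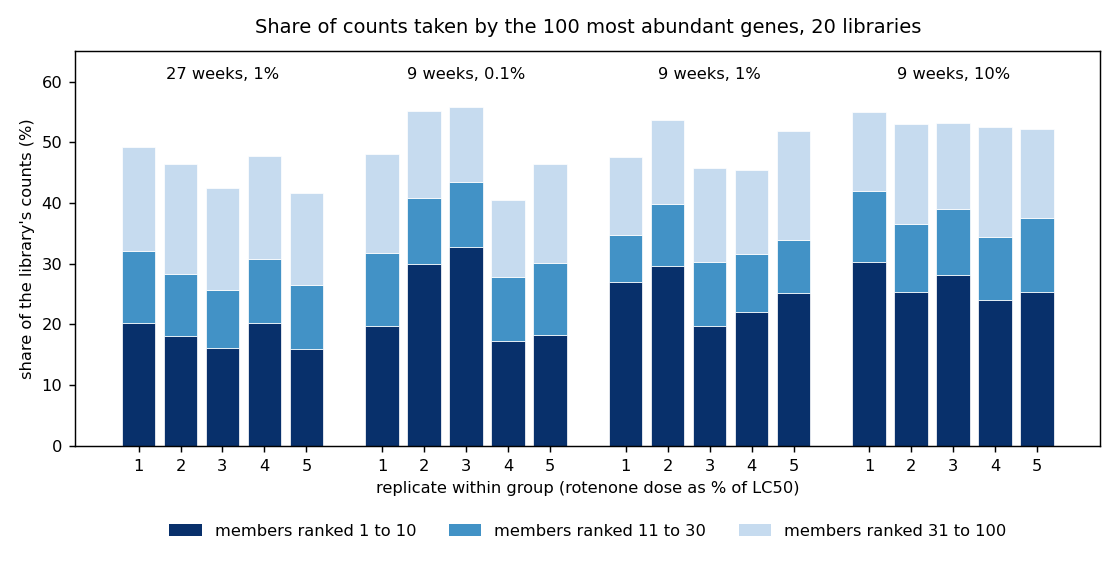
Share of each library's counts (%) taken by the members ranked 1 to 10, 11 to 30 and 31 to 100, stacked, with 1 bar per library and 5 libraries per group. The 10 highest members take 15.9% to 20.29% at 27 weeks and 24.0% to 30.3% at 9 weeks and 10%.

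How far each library's RNA was concentrated in few genes was also tested without the member rule. A library's own 100 highest genes took 53.8% ± 1.65 of its counts at 10% and 50.6% ± 3.95 at 1% (SD, n = 5 each; exact two-sided permutation p = 0.135, adjusted over 8 tests 0.360). In 27-week fish this share was 46.5% ± 3.31, against the same 50.6% ± 3.95 in 9-week fish at 1% (SD, n = 5 each; exact permutation p = 0.135, adjusted p = 0.360). The effective number of genes, the exponential of the Shannon entropy of the shares, was 1107 ± 197 in 27-week fish and 856 ± 207 in 9-week fish at 1% (SD, n = 5 each; exact permutation p = 0.111, adjusted p = 0.360). None of the 8 tests passed, and with a lowest exact permutation p of 0.111 none passed before adjustment either. The smallest exact p the design can give is 0.00794, and 1 such test alone among the 8 would have an adjusted p of 0.0635. With 5 libraries per group, the lack of a pass does not show that the groups are alike. At 1% against 0.1%, the shares of 50.6% ± 3.95 and 50.5% ± 6.10 differed by 0.0924 points (SD, n = 5 each; exact permutation p = 0.976, adjusted p = 0.976), and leaving out replicate 1, 4 or 5 at 0.1%, or replicate 2 or 5 at 1%, turned the sign of that difference.

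At 9 weeks, 5 of the 100 members passed the test of 10% against 1%, 4 higher and 1 lower at 10%, where 23.0% of the 16150 genes tested passed (9.46% higher and 13.5% lower). The members that moved lay at ranks 42 to 96, and 0 of the 30 highest passed. Nfu_g_1_000698 held 1758, 2676, 1917, 1669.5 and 1951 CPM at 10%, against 129.5, 677, 1149, 327 and 178 CPM at 1%. All 5 libraries at 10% lay above all 5 at 1%, a log2 fold change of 2.10 ± 0.49 (SE; edgeR adjusted p = 0.00629). Nfu_g_1_004519 was even more uniform at 10%, with 1742, 1886, 1779, 1911 and 1864 CPM, against 723, 692, 1585, 488 and 92.4 CPM at 1%. Its groups did not overlap either, and it rose by 1.504 ± 0.40 (SE; edgeR adjusted p = 0.0133) on the log2 scale. Both genes lie near the limit of the rule, at ranks 83 and 96. Their levels at 10% count in that rule, so these rises can be partly built in. Nfu_g_1_009142 held 1989, 3073, 1397, 1995 and 1549 CPM at 10%, against 2493, 3690.4, 4678, 3533 and 5644 CPM at 1%. Here 4 of 5 libraries at 10% lay below all at 1%, and the log2 fold change was -1.07 ± 0.33 (SE; edgeR adjusted p = 0.0275). The other 2 members that passed rose by 0.88 and 1.02 on the log2 scale.

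The CPM ranges of 3 members did not overlap between 10% and 1%, beside 13.1% of all genes tested. Over the members the size of the log2 fold change had a median of 0.27, beside 0.48 over all genes tested, with median standard errors of 0.28 and 0.31. For 67 members, and 38.1% of all genes, the fold change with 2 standard errors on each side stayed within a 2-fold difference. The share of counts was higher at 10% for 18 of the 20 members ranked 11 to 30, which together took 11.26% ± 0.71 at 10% and 9.31% ± 1.18 at 1% (SD, n = 5 each), although 0 of these 20 passed singly. By library they took 10.37% to 12.25% at 10% and 7.61% to 10.52% at 1%, so the ranges overlapped. Members of a library share its fixed total and are not independent. The levels at 10%, 1% and 0.1% all count in the rule that ranked the members, so such a pattern can be partly built in. Of all 100 members, 60 took a higher mean share at 10%. After TMM, which is another scale than the share, 59 members and 7975 of the 16150 genes tested had a positive log2 fold change. Without replicate 3 or 4 at 10%, 2 members rose and 1 fell, and without its replicate 5, 3 rose and 0 fell. Without replicate 3 at 1%, 3 rose and 3 fell, without its replicate 4, 2 rose and 2 fell, and without its replicate 5, 7 rose and 1 fell. With total counts in place of TMM, 4 rose and 3 fell. Among all genes tested, leaving out 1 library gave 2780 to 4923 calls and total counts 3248, against 3713 in the main fit. Nfu_g_1_009142 did not pass without replicate 1, 3, 4 or 5 at 10% or replicate 5 at 1% (edgeR adjusted p 0.0524 to 0.0663), and its log2 fold change was -0.71 without the last of these, whereas Nfu_g_1_000698 and Nfu_g_1_004519 passed whichever library was left out. With only the groups compared in the fit, these 2 passed and Nfu_g_1_009142 did not (edgeR adjusted p = 0.0738), where 2453 of 15600 genes tested passed.

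**Figure D3:**
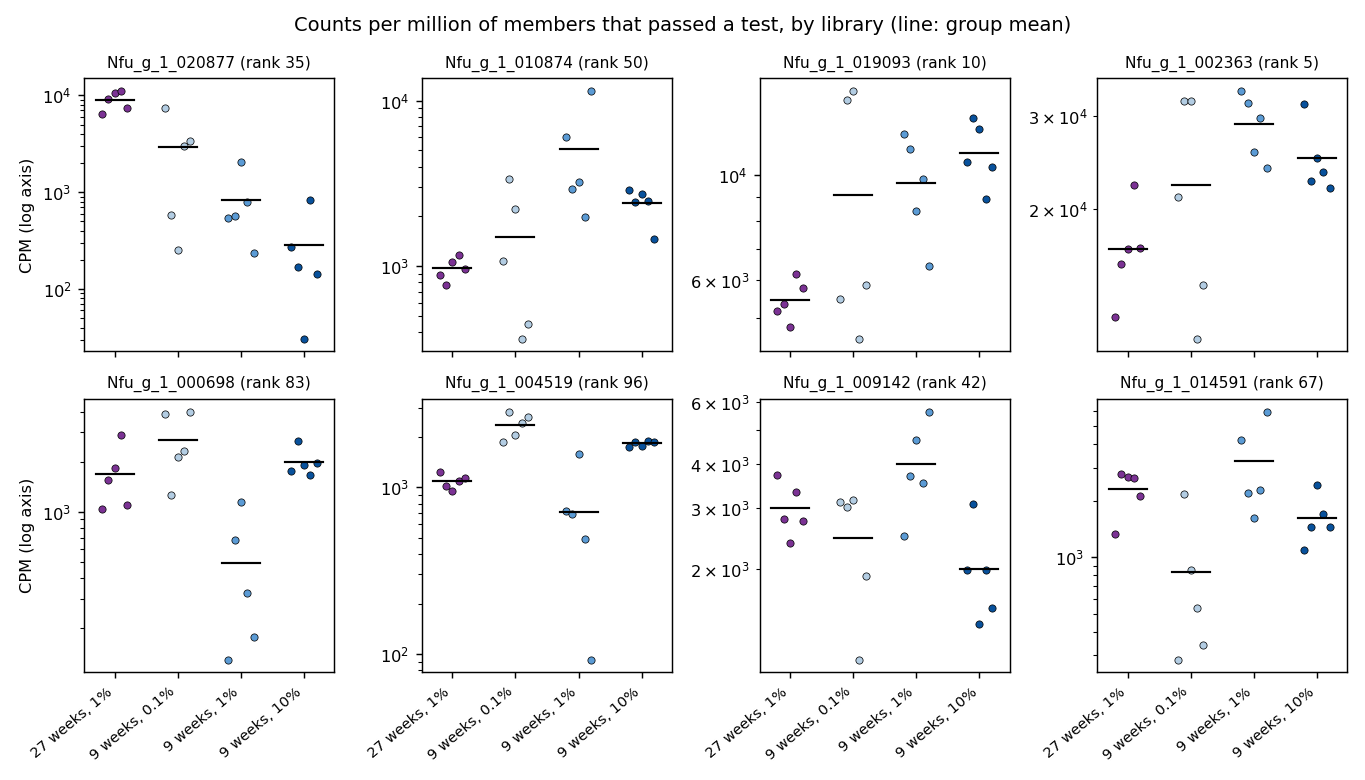
CPM (log axis) of 8 members that passed at least 1 test, with 1 point per library and a line at the group mean, for 27-week fish at 1% and 9-week fish at 0.1%, 1% and 10%. Nfu_g_1_020877 lies highest at 27 weeks, and Nfu_g_1_000698 and Nfu_g_1_004519 lie lowest at 9 weeks and 1%.

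Between ages at 1%, the 10 highest members together took a smaller mean share of counts in old fish. They took 18.1% ± 2.13 of counts in 27-week fish and 24.7% ± 3.92 in 9-week fish (SD, n = 5 each), with 3 of the 5 libraries of 27-week fish below all 5 of 9-week fish and 8 of the 10 members at a lower mean share. Most group means in the rule were of 9-week fish, which favours genes high at 9 weeks, so this can be partly built in. The differences in mean share were -1.86 percentage points for Nfu_g_1_005996, -1.21 for Nfu_g_1_002363 and -1.19 for Nfu_g_1_014314. Of these, Nfu_g_1_002363 passed the test described next, and Nfu_g_1_005996 and Nfu_g_1_014314 did not. Nfu_g_1_015843 took 0.758 points more in 27-week fish. By contrast, the members ranked 31 to 100 took 16.8% ± 1.02 in 27-week fish and 14.8% ± 1.96 in 9-week fish (SD, n = 5 each). Of these 70 members, 40 took a higher and 30 a lower mean share. The class gained 1.99 points, and Nfu_g_1_020877 alone, whose high 27-week level counts in the rule, gained 0.813. The direction of the class median depended on the scaling, with a median log2 fold change of these 70 members of -0.11 after TMM, 0.09 with total counts and 0.02 scaled by the counts outside the members. Over all genes tested the median was -0.03, 0.11 and 0.02, in the same order. On the scale of total counts, on which the shares are given, the class median was thus near that of all genes. In bulk liver, fewer cells of a type and less RNA per cell cannot be told apart.

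The test of single genes called 5 members, 1 higher and 4 lower at 27 weeks, where 2.85% of the 16150 genes tested passed (1.31% higher and 1.54% lower). The largest rise was in Nfu_g_1_020877, which held 6465, 9163, 10695, 11158 and 7362 CPM in 27-week fish, against 547, 573, 2064, 786 and 236 CPM in 9-week fish at 1%. The lowest library of 27-week fish lay far above the highest of 9-week fish at 1%, and the log2 fold change was 3.36 ± 0.68 (SE; edgeR adjusted p = 0.0243). The gene's high level in old fish counts in the rule that chose the members, so this rise can be partly built in. By mean level it ranked 9th in old fish, whereas the young groups placed it 41st (0.1%), 188th (1%) and 388th (10%). Replicate 1 of the 9-week 0.1% group lay inside the range of 27-week fish, with 7401 CPM. The largest fall was in Nfu_g_1_010874, the shortest member at 381 nucleotides, with 886, 763, 1056, 1171 and 962 CPM in 27-week fish, against 6065, 2932, 3237, 1980.5 and 11481 CPM in 9-week fish. The groups did not overlap, and the log2 fold change was -2.77 ± 0.50 (SE; edgeR adjusted p = 0.0187).

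Nfu_g_1_019093, the longest member at 11777 nucleotides and at rank 10 by CPM, held 5172, 5358, 4782, 6177 and 5773 CPM in 27-week fish, against 12178, 11325, 8401, 9806 and 6423 CPM in 9-week fish. It fell by 0.97 ± 0.19 (SE; edgeR adjusted p = 0.0223) on the log2 scale, with no overlap. Nfu_g_1_002363, at rank 5 by CPM, held 12488, 15763, 16789, 22171 and 16834 CPM in 27-week fish, against 33447, 31713, 25667, 29743 and 23915 CPM in 9-week fish, a log2 fold change of -0.96 ± 0.21 (SE; edgeR adjusted p = 0.0338). Its groups lay apart as well, by the gap between 22171 and 23915 CPM. Nfu_g_1_022977 held 792, 459, 789.6, 1016 and 599 CPM in 27-week fish, against 2012, 973, 1362, 1153 and 903 CPM in 9-week fish, with 4 of 5 libraries of 27-week fish below all of 9-week fish and a log2 fold change of -0.92 ± 0.23 (SE; edgeR adjusted p = 0.0484). Nfu_g_1_011044, with 10603, 9813, 10761, 11274 and 8917 CPM in 27-week fish and 21348, 16337, 12547, 14328 and 35737 CPM in 9-week fish, had ranges apart but did not pass (edgeR adjusted p = 0.0619).

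In all, 8 members had CPM ranges that did not overlap between the ages, beside 4.51% of all genes tested. The size of the log2 fold change had a median of 0.37 over the members and 0.36 over all genes, and the median signed change was -0.81 over the 10 highest members and -0.03 over all genes tested. The rule that ranked the members draws mostly on 9-week groups, so a fall of the highest at 27 weeks can be partly built in. The calls of members were unsteady, as were those over all genes tested. Without replicate 2 or replicate 3 of the 27-week group 0 members passed, without its replicate 1 or 5, or replicate 2 at 9 weeks, 1 rose and 2 fell, and without replicate 3 at 9 weeks 3 rose and 7 fell. Among all genes, 461 passed in the main fit, and 62 and 46 without replicate 2 and 3 of the 27-week group. Without replicate 3 at 9 weeks, 626 of all genes passed. Without replicate 5 at 9 weeks, which held the highest level of Nfu_g_1_010874, the log2 fold change of that gene was -1.88 (edgeR adjusted p = 0.0059). Nfu_g_1_020877, Nfu_g_1_010874 and Nfu_g_1_019093 had edgeR adjusted p of 0.0504 to 0.0646 without replicate 2 or 3 of the 27-week group. Nfu_g_1_002363 did not pass without replicate 1, 2, 3 or 5 of the 27-week group or replicate 2 at 9 weeks (edgeR adjusted p 0.0564 to 0.0876). Nfu_g_1_022977 passed only without replicate 4 of the 27-week group or replicate 3 at 9 weeks among these 10 refits. With total counts in place of TMM, 2 members rose and 3 fell, and scaled by the counts outside the members 2 rose and 4 fell. These 2 scalings called 254 and 370 of all genes tested. Nfu_g_1_022977 passed with neither (edgeR adjusted p = 0.0836 and 0.0619, in the same order).

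**Figure D4:**
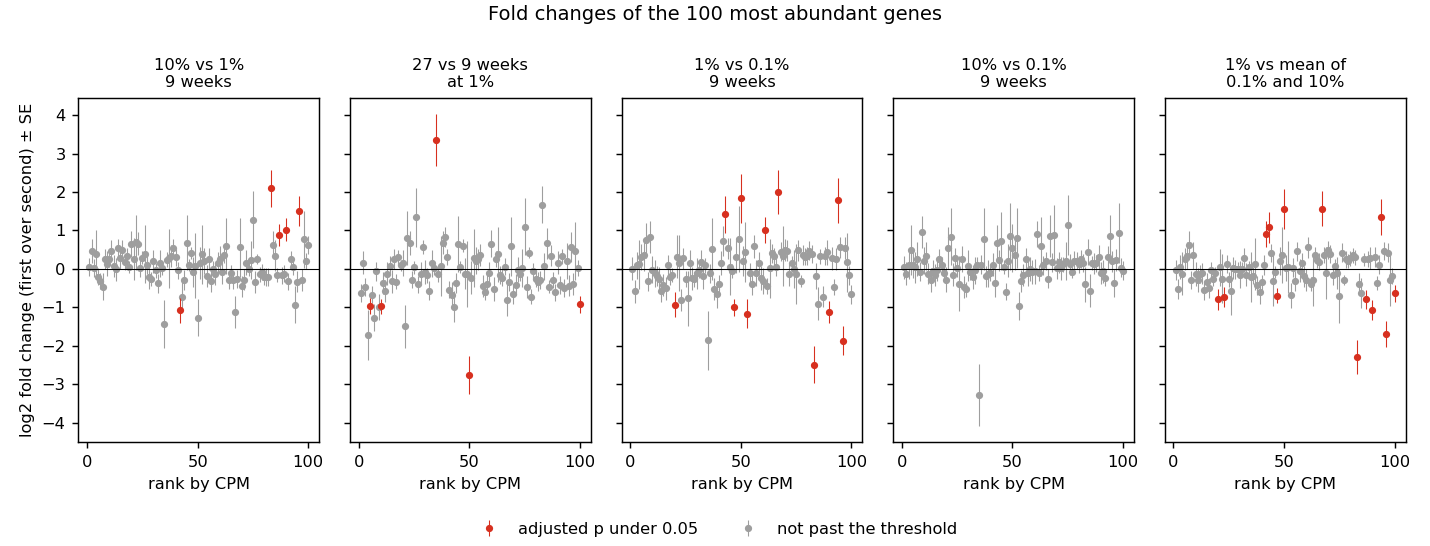
Log2 fold change ± SE of each of the 100 members against its rank by CPM, 1 panel per comparison, with members past an edgeR adjusted p of 0.05 in red. The red points number 5, 5, 11, 0 and 13 from left to right.

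For 1% against 0.1% at 9 weeks, 11 members passed, 5 higher and 6 lower at 1%, where 19.4% of the 16516 genes tested passed (11.6% higher and 7.82% lower). Nfu_g_1_000698 held 129.5, 677, 1149, 327 and 178 CPM at 1%, against 3844, 1265, 2141, 2313 and 4000.1 CPM at 0.1%. The groups did not overlap, and the log2 fold change was -2.49 ± 0.48 (SE; edgeR adjusted p = 0.00127). Nfu_g_1_004519 likewise lay lower in all 5 libraries at 1%, given above, than in any at 0.1%, where it held 1884, 2857, 2072, 2452 and 2653 CPM, a log2 fold change of -1.87 ± 0.38 (SE; edgeR adjusted p = 0.00166). The largest rise was in Nfu_g_1_014591, with 4209.7, 2189, 1617, 2266 and 5962 CPM at 1%, against 285, 2161, 849, 536 and 340.3 CPM at 0.1%. Replicate 2 at 0.1% lay inside the range of the 1% group, and the log2 fold change was 1.998 ± 0.57 (SE; edgeR adjusted p = 0.0194). Nfu_g_1_010874 held 5139 ± 3858 CPM at 1% and 1494 ± 1289 CPM at 0.1% (SD, n = 5 each), with only 2 of 5 libraries at 1% above all at 0.1%, and its log2 fold change was 1.84 ± 0.64 (SE; edgeR adjusted p = 0.0495). The other 3 members that rose did so by 1.01 to 1.78 on the log2 scale, and the other 4 that fell had log2 fold changes between -0.93 and -1.16.

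Ranges did not overlap for 5 members, beside 6.50% of all genes tested, and 10 members had a log2 fold change of 1 or more in size, beside 19.6% of all genes. At 1%, 16 of the 20 members ranked 11 to 30 took a lower mean share of counts than at 0.1%, and 1 of these 20 passed. These are the same members and the same libraries at 1% as in the comparison with 10%, so the counts are not independent. The ranking rule uses these groups, so this can be partly built in. Of all 100 members, 48 took a lower mean share at 1%. After TMM, which is another scale than the share, 48 members and 8375 of the 16516 genes tested had a negative log2 fold change. The number that rose was 1 without replicate 1 or 5 at 1%, where 5 fell. Leaving out a library at 0.1%, 1 rose and 4 fell without replicate 1, 1 rose and 6 fell without replicate 3, 1 rose and 10 fell without replicate 4, and 0 rose and 4 fell without replicate 5. Among all genes tested, leaving out 1 library gave 2277 to 3439 calls, against 3204 in the main fit. Nfu_g_1_014591 did not pass without replicate 5 at 1% (edgeR adjusted p = 0.0744) or replicate 5 at 0.1% (0.0532). Nfu_g_1_010874 did not pass without replicate 1 or 5 at 1% or without replicate 1, 3, 4 or 5 at 0.1%, with edgeR adjusted p up to 0.244. Its log2 fold change was 0.94 without replicate 5 at 1% and 2.46 without replicate 2 at 0.1%. That of Nfu_g_1_014591 was 1.35 and 2.87 without the same libraries. Nfu_g_1_000698 and Nfu_g_1_004519 passed whichever library was left out. With only the groups compared in the fit, these were the 2 members that passed, beside 1091 of 15411 genes tested. There Nfu_g_1_014591 (edgeR adjusted p = 0.123) and Nfu_g_1_010874 (0.206) did not pass.

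Across the widest gap in dose, 10% against 0.1%, 0 members passed edgeR's quasi-likelihood test, where 0.0484% of the 16516 genes tested passed (0.0182% higher and 0.0303% lower). Among the members 6 had an unadjusted p under 0.05, beside 6.53% of all genes. DESeq2 called 1 member, beside 139 of the 16516 genes, and limma voom called 0 members, beside 5 genes. The CPM ranges of 2 members did not overlap, beside 1.82% of all genes. The median size of the log2 fold change was 0.20 over the members and 0.21 over all genes, with a median standard error of 0.30 for a member. For 68 members, beside 57.9% of all genes, the fold change with 2 standard errors on each side stayed within a 2-fold difference. Nfu_g_1_000698 averaged 1994 ± 398 CPM at 10% and 2713 ± 1175 CPM at 0.1%, and Nfu_g_1_004519 averaged 1836 ± 72.4 CPM at 10% and 2384 ± 403 CPM at 0.1% (SD, n = 5 each). The largest fitted difference, which did not pass, was in Nfu_g_1_020877, with 287 ± 312 CPM at 10% and 2929 ± 2867 CPM at 0.1% (SD, n = 5 each). Its libraries at 0.1% held 7401, 586, 252.4, 3009 and 3395 CPM, and replicates 2 and 3 lay inside the range at 10%.

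The middle dose was also set against the mean of 0.1% and 10%, in a contrast that shares its libraries with the others and was chosen with their results known. It called 13 members, 5 higher and 8 lower at 1%, where 27.1% of the 16516 genes tested passed (16.5% higher and 10.7% lower). Nfu_g_1_000698 fell to 492 ± 425 CPM at 1%, against 2713 ± 1175 CPM at 0.1% and 1994 ± 398 CPM at 10% (SD, n = 5 each). Its log2 fold change was -2.30 ± 0.45 (SE; edgeR adjusted p = 0.00077). Nfu_g_1_004519 changed by -1.69 ± 0.34 (SE; edgeR adjusted p = 0.00111) on the log2 scale. The levels of both genes at 0.1% and 10% count in the rule, so these falls can be partly built in. In 27-week fish at 1%, Nfu_g_1_000698 held 1043, 1544, 1844, 2903 and 1102 CPM and Nfu_g_1_004519 1229.5, 1017, 952, 1094 and 1141 CPM. The 27-week range of Nfu_g_1_000698 thus overlapped all 3 groups of 9-week fish, and that of Nfu_g_1_004519 overlapped the 9-week 1% group only. The largest rises were in Nfu_g_1_014591, by 1.57 ± 0.46 (SE; edgeR adjusted p = 0.0163), and Nfu_g_1_010874, by 1.57 ± 0.52 (SE; edgeR adjusted p = 0.0305), on the log2 scale.

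Ranges at 1% lay outside those of both other doses for 3 members, beside 5.04% of all genes tested. The members that fell took 1.31% ± 0.446 of counts at 1%, against 2.65% ± 0.369 at 0.1% and 2.21% ± 0.199 at 10%, and those that rose took 1.88% ± 0.765 at 1%, against 0.700% ± 0.377 at 0.1% and 0.983% ± 0.152 at 10% (SD, n = 5 each); these were picked by this contrast and their shares carry no test. Among the members 1 rose and 8 fell with limma voom, and 1 rose and 6 fell with only these 3 groups in the fit. Without replicate 1 at 1%, 3 rose and 5 fell, without its replicate 4, 3 rose and 4 fell, and without its replicate 5, 1 rose and 7 fell. Without replicate 3 at 0.1%, 3 rose and 5 fell, and without its replicate 5, 2 rose and 6 fell. Leaving out replicate 1, 3, 4 or 5 at 10%, the number that rose was 2, 3, 2 and 1 and the number that fell 5, 5, 6 and 6, in that order. Among all genes tested, leaving out 1 library gave 3581 to 4538 calls, against 4484 in the main fit. It was 3894 with limma voom and 3572 with only the 3 groups. Without replicate 5 at 1%, Nfu_g_1_014591 (edgeR adjusted p = 0.126) and Nfu_g_1_010874 (0.312) did not pass, with log2 fold changes of 0.93 and 0.67. Replicate 5 held the highest level of both genes, at 5962 and 11481 CPM. Nfu_g_1_010874 also did not pass without replicate 5 at 10% (edgeR adjusted p = 0.0504). It did not pass with only these 3 groups in the fit (edgeR adjusted p = 0.0641) or with limma voom (adjusted p = 0.0704), whereas Nfu_g_1_014591 passed in both.

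In the test of 10% against 1%, 0% of the 30 highest members passed, 7.14% of those ranked 31 to 100, 15.25% of the genes ranked 101 to 500, 28.2% of those ranked 501 to 2000 and 22.8% of those ranked 2001 and lower. For 1% against 0.1%, 0 of the 10 highest members passed, 1 of the next 20 and 14.29% of those ranked 31 to 100. Of the genes ranked 101 to 500, 13.5% passed, with 24.2% at ranks 501 to 2000 and 19.1% at ranks 2001 and lower. In 27-week against 9-week fish, 2 of the 10 highest members passed, 0 of the next 20 and 4.29% of those ranked 31 to 100. The shares were 3.25% at ranks 101 to 500, 4% at ranks 501 to 2000 and 2.71% at ranks 2001 and lower. The median standard error of the log2 fold change for 10% against 1% was 0.28 over the members, 0.26 over the genes ranked 101 to 500, 0.23 over those ranked 501 to 2000 and 0.31 over all genes tested. These shares are descriptions, and the difference between the classes was not tested.

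**Figure D5:**
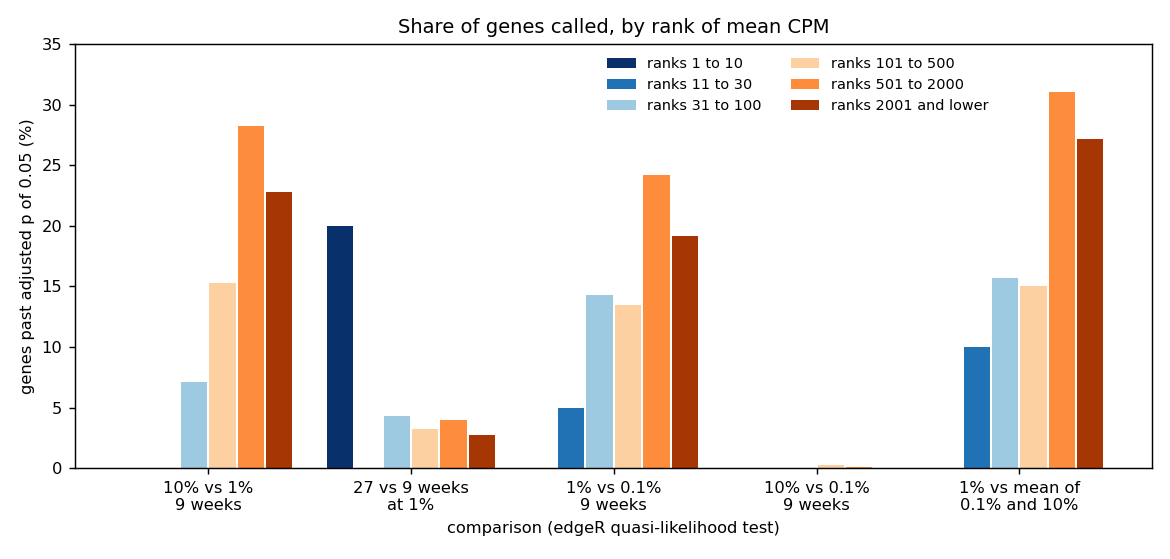
Percentage of genes past an edgeR adjusted p of 0.05 in each comparison, by rank of mean CPM (blue: members; orange: the other genes tested). For 10% against 1% the bars are at 0% for ranks 1 to 30 and at 28.2% for ranks 501 to 2000.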

How the data were processed

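Raw counts per gene were deposited by the authors. Of the 20 liver libraries used, 15 came from a table and 5 (the 9-week 0.1% group) from another. The submitters' processing notes name STAR 2.4.1d, featureCounts 1.4.6-p4 and CASAVA 1.8.2. Genome build, annotation, strand handling and settings were not given in the sources used here, so counts of near-identical copies and of overlapping or antisense genes are uncertain. Per the labels' protocols, total RNA was made into TruSeq libraries. Another 10 columns of the count tables, of samples outside the sample list, were not used. The authors also deposited tables labelled RPKM, treated here as a score, because their divisors, which equal the library totals within a relative difference of 1.91e-06, are recycled down the rows with a period of 35. They served only to recover gene lengths, for 14857 genes.

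Members were the 100 genes with the highest mean of the 4 group mean CPM. All 100 passed the filter on low counts. Members and lists were chosen with earlier results of these data known. Since 0 identifiers matched RefSeq (assembly NfurGRZ-RIMD1), the marker and pathway lists were not applied.

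Groups came from the labels, and replicate numbers only name libraries. The main test was that of edgeR 4.0.16, run in R 4.3.3 (low counts filtered by filterByExpr, TMM, quasi-likelihood F-test, Benjamini-Hochberg adjustment over all genes tested, threshold 0.05). The fit used 15 libraries for 10% against 1% and 27 against 9 weeks, and 20 libraries for comparisons with 0.1%. Fold changes are on TMM-scaled counts, and CPM are per total count. A standard error is the log2 fold change over the root of its F statistic. The script was tested on simulated data. Named were the 5 highest members, the 2 largest rises and 2 largest falls per comparison among members that passed, the genes at ranks 99 to 102, the 3 highest per length and the most variable member of each group. Nfu_g_1_021459, Nfu_g_1_003952, Nfu_g_1_013506, Nfu_g_1_004027, Nfu_g_1_010414, Nfu_g_1_012205, Nfu_g_1_011319 and Nfu_g_1_020840 were added, with their values known, as members that varied together. Shares of counts and effective gene numbers were compared by exact permutation. Alternatives were DESeq2 1.42.0, limma 3.58.1 voom, other scalings, filters, libraries and member rules.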

Additional observations from a re-analysis of the deposited data

Results flagged for a closer look

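Of 96 sets of 5 replicate values checked (18 named members, the share of counts and the like, in each group), 2 held a value far from the others by Dixon's 95% criterion. Among independent sets of normal values about 1 in 20 would be flagged. The sets here share libraries and include members named for their level or spread, so that rate is only a guide. The share of counts in a library's own 100 highest genes was 56.6% in replicate 1 at 9 weeks and 10%, where the other 4 lay between 52.5% and 53.7%. Nfu_g_1_000698 stood at 2676 CPM in replicate 2 at 9 weeks and 10%, where the other 4 held 1669.5 to 1951 CPM.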

How the results depend on the processing

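No paired analysis was possible because the labels give no replicate numbers. With DESeq2, 9 members passed for 10% against 1%, 18 for 27 against 9 weeks and 1 for 10% against 0.1%. Over all genes tested, DESeq2 called 4646, 1687 and 139 in the same order, where the main test called 3713, 461 and 8. With only the groups compared in the fit, 2 passed for 10% against 1% and 1 for 27 against 9 weeks. For 1% against 0.1% it was 2, and for 1% against the mean of 0.1% and 10% it was 7. These fits called 2453 of 15600, 25 of 15491, 1091 of 15411 and 3572 of 16122 genes, in that order. With no filter on low counts, 1% against the mean of 0.1% and 10% gave 8 members, beside 4117 of 22504 genes. With members chosen per length, a list that shares 56 genes with the members, 4 passed for 1% against 0.1% and 6 for 1% against the mean of 0.1% and 10%. Of the 16516 genes tested, 19.4% and 27.1% passed, in that order. Leaving out 1 library gave 3 to 8 members for 10% against 1%, 0 to 10 for 27 against 9 weeks, 4 to 12 for 1% against 0.1%, and 7 to 14 for 1% against the mean. The calls over all genes in these refits were 2780 to 4923, 46 to 626, 2277 to 3439 and 3581 to 4538, in the same order. The share of counts differed with the size of the list, at 35.6% (27 weeks), 40.3% (0.1%), 39.9% (1%) and 43.6% (10%) for the 50 highest genes and 56.8%, 58.9%, 59.6% and 63.0% for the 200 highest, in the same order. Leaving out 1 library, it ranged over 44.6% to 46.5% at 27 weeks, 47.6% to 51.4% at 0.1%, 47.7% to 49.7% at 1% and 52.7% to 53.4% at 10%. The difference in a library's own share in its 100 highest genes ranged over 2.21 to 4.35 points for 10% against 1%, -5.06 to -2.92 for 27 against 9 weeks, -1.82 to 1.73 for 1% against 0.1% and 1.41 to 4.97 for 10% against 0.1%. The difference in the effective number of genes ranged over -192 to -74.7, 187 to 307, -126 to 73.7 and -256 to -56.3, in the same order. The causes were not tested. For 27 against 9 weeks, total counts in place of TMM moved the median log2 fold change of all genes tested to 0.11, against -0.03 with TMM.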
